A study of Mus musculus with 3 samples.

Results

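Among TEa CD4 T cells recovered from an allogeneic heart graft, 469 of 2714 non-cycling cells carried at least 2 transcripts of Tcf7, the gene of the transcription factor TCF1. These Tcf7-positive cells made up 17.3% of the filtered graft cells (95% exact binomial interval 15.9 to 18.8%). They were compared with the 1808 graft cells of the same filter that carried no Tcf7 transcript. The same filter left 8734 cells in the graft and spleen libraries together. A cell entered the filter with at least 1000 unique molecular identifiers (UMIs, each standing for 1 captured transcript), at least 500 genes, at most 10% mitochondrial UMIs and at least 6 summed UMIs of 6 T cell receptor and CD3 genes. It could hold at most 1 UMI of the macrophage gene Lyz2 and at most 1 summed UMI of 10 mitotic and S-phase genes. The Tcf7 counts therefore chose the cells, and the Tcf7 level, the T cell genes, the cycling genes and Lyz2 are described here without being read as results.

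TEa cells carry a transgenic T cell receptor that recognises I-E alpha of the BALB/c strain, a donor alloantigen. Naive, congenically marked, wild-type TEa cells were given to C57BL/6 recipients of BALB/c hearts and were sorted from the graft and from the spleen 7 days after transplantation. The graft and spleen groups used here are both wild type and each is 1 library, and neither the number of recipients behind a library nor whether both tissues came from the same mice is given in the sources used here. With 1 library per group no difference has a replicate check and no p-value is given, and what belongs to the tissue cannot be told apart from what belongs to the library. Another library, of Ldha-/- TEa cells from the spleen, was not analysed here.

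TCF1 and its relative LEF1 bind DNA through a high-mobility-group domain and are active in naive and memory T cells. T cells that keep TCF1 after activation are known in chronic infection, tumours and transplantation for self-renewal and for giving rise to effector cells, and they usually carry SLAMF6 on their surface. In CD4 T cells TCF1 also takes part in forming T follicular helper (Tfh) cells, which help B cells, and opposes the Th1 effector programme.

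The 469 cells were of similar depth to their comparators. Their median was 7964 UMIs and 2050 genes, against 7309.5 UMIs and 2007.5 genes in the Tcf7 0 cells, and mitochondrial UMIs had medians of 3.44% and 2.91%. Ribosomal protein genes took 36.0% of all UMIs in the Tcf7-positive cells and 29.9% in the Tcf7 0 cells. In total 4104734 UMIs stood behind the Tcf7-positive profile and 13954771 behind the Tcf7 0 profile. For a count of 0, 3 counts serve as an approximate 1-sided 95% upper limit, and they correspond to 0.731 CPM and 0.215 CPM. The shares allowed below by 0 cells use 3 cells in the same way. CPM is a gene's summed UMI count after each group's total has been brought to 1 common size. Intervals given below are exact 2-sided 95% intervals and cover counting error only. Of the cells in the filter, 2 barcodes occurred in both libraries, and 0 of the Tcf7-positive graft cells shared a barcode with a filtered spleen cell.

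The labelled cell type was checked against its markers. Tcf7 (chromosome 11, 52252371 to 52283014, minus strand, GRCm38) was at 353 CPM in the Tcf7-positive cells and 0 in the comparison cells by construction, with 2 to 13 UMIs per cell. Slamf6, the surface receptor that marks stem-like T cells (chromosome 1, 171917515 to 171953170, plus strand), reached 212 CPM (198 to 227) against 67.9 CPM (63.6 to 72.3). Lef1 (chromosome 3, 131110471 to 131224356, plus strand), the relative of Tcf7, was at 71.4 CPM (63.4 to 80.0) against 38.1 CPM (35.0 to 41.5). Both markers were higher in the Tcf7-positive cells beyond counting error, and neither was absent from the Tcf7 0 cells. After each cell was thinned to 3000 UMIs, a Slamf6 UMI was found in 39.2% of Tcf7-positive cells (34.7 to 43.8%) and in 16.5% of Tcf7 0 cells (14.8 to 18.4%). Without thinning the shares were 67.4% and 32.6%. A Lef1 UMI was found in 19.5% (16.0 to 23.4%) and 10.7% (9.31 to 12.2%) of thinned cells, and in 41.6% and 23.6% of unthinned cells. In 16 myeloid barcodes of the graft library, which should lack these genes and had a median of 15462 UMIs, Tcf7 and Lef1 were found in 0 barcodes, which allows a share of up to 18.75%, and Slamf6 in 2. Cd4, the coreceptor of the sorted cells, was found in 72.3% of unthinned Tcf7-positive cells and 70.2% of Tcf7 0 cells. Cd8a was found in 0 of 469 Tcf7-positive cells, which allows a share of up to 0.640%.

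Across all genes, differences of at least 1.5-fold on the log2(CPM + 1) scale, with at least 20 CPM in either group, were counted as higher or lower, as a description of size. Of 4530 genes at that floor, 121 were higher in Tcf7-positive graft cells (2.67%) and 232 were lower (5.12%). Without Tcf7, which the rule used, 120 were higher. The split depended on the total used for scaling. When mitochondrial, ribosomal protein and Malat1 UMIs were left out of the totals, the median log2 ratio of the same 4530 genes moved up by 0.15, and 225 of these genes were higher and 136 lower. The share of calls that were higher thus went from 34.3% to 62.3%. Of the 232 genes called lower, 136 were also called lower with that total, and all 120 called higher were also called higher. Log2 ratios below use the total of all UMIs, and over the genes with at least 10 CPM in either group their median was -0.07.

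Transcription factors and membrane proteins of naive, memory and stem-like T cells were higher in the Tcf7-positive cells. Of 24 genes on this list besides Tcf7, 17 reached 20 CPM in either group, and 11 of these were called higher and 0 lower. The median log2 ratio of the 20 members with at least 10 CPM was 1.17, against -0.07 for all genes at that level. Nsg2, a small membrane protein gene, had the highest ratio, at 32.9 CPM (27.6 to 38.9) against 2.08 CPM (1.39 to 2.98), a log2 ratio of 3.46. Actn1, the cytoskeletal protein alpha-actinin, was at 79.7 CPM (71.3 to 88.8) against 17.3 CPM (15.2 to 19.6). Bach2, a transcriptional repressor that restrains effector differentiation, was at 34.4 CPM (28.9 to 40.5) against 8.53 CPM (7.06 to 10.2). Id3, an inhibitor of E proteins, was low in both graft groups, at 11.7 CPM (8.62 to 15.5) and 3.87 CPM (2.91 to 5.05). Dapl1, a gene of naive and memory T cells, gave 22 UMIs from 7 Tcf7-positive cells and 0 UMIs in the Tcf7 0 cells. Its level was at least 24.9-fold higher when 3 counts are allowed over the Tcf7 0 group. That bound takes UMIs of the same cell as independent, and only 7 cells carried the gene. Il7r, the receptor for the survival cytokine IL-7, was at 275 CPM (259 to 291) against 198 CPM (191 to 206), a log2 ratio of 0.47 that lay below the 1.5-fold limit. With mitochondrial, ribosomal protein and Malat1 UMIs left out of the totals, the Il7r ratio was 0.62, above that limit. Xcl1, a chemokine included in the list from stem-like CD8 T cells, went the other way, at 0.974 CPM against 12.1 CPM, below the 20 CPM floor.

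Some receptors and regulators of lymph node homing and tissue egress were also higher. Ccr7 (chromosome 11, 99144196 to 99155077, minus strand), the chemokine receptor that guides T cells into lymph nodes and lymphatic vessels, was at 243 CPM (228 to 259) in the Tcf7-positive cells and 36.3 CPM (33.2 to 39.6) in the Tcf7 0 cells, a log2 ratio of 2.71. A Ccr7 UMI was found in 30.6% of thinned Tcf7-positive cells (26.5 to 35.0%) and 5.78% of Tcf7 0 cells (4.74 to 6.96%), and in 45.8% and 8.85% without thinning. Klf2, the transcription factor that maintains egress receptors, was at 113 CPM (103 to 124) against 31.5 CPM (28.6 to 34.5), and its relative Klf3 was at 66.5 against 19.9 CPM. S1pr1, the egress receptor itself, was at 146 against 64.2 CPM. Of the 20 genes on the egress and quiescence list, 17 reached the floor, with 6 called higher and 0 lower, and the list's median was 0.19.

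Genes of the Tfh programme were higher in part. Of 17 genes, 10 reached the floor, with 5 called higher and 2 lower, and the median of 13 members was 0.98. Tox2, an HMG-box factor of Tfh and exhausted cells, was at 20.7 CPM (16.5 to 25.6) against 3.44 CPM (2.54 to 4.56). Bcl6, the repressor that defines Tfh cells, was at 37.8 CPM (32.1 to 44.2) against 14.8 CPM (12.9 to 16.998), a log2 ratio of 1.29. Cxcr5, the receptor that leads Tfh cells into follicles, was at 12.7 CPM (9.46 to 16.6) against 1.22 CPM (0.710 to 1.95), below the floor. Pdcd1, which encodes the inhibitory receptor PD-1 and is high in Tfh cells, was lower, at 83.3 against 299 CPM, a log2 ratio of -1.83. With a floor of 50 CPM only 5 members remain, Pdcd1 among them, and the list's median is -0.52. After thinning, 20 Tcf7-positive cells held a Cxcr5 UMI, 40 held a Bcl6 UMI and 1 held both, too few to say whether the genes mark the same cells.

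Other genes with the highest ratios were not on a T cell memory list. Esm1, a secreted proteoglycan gene best known from endothelium, was at 49.9 CPM (43.3 to 57.3) against 8.17 CPM (6.74 to 9.81). It came from 87 Tcf7-positive cells, with at most 13 UMIs in 1 cell, while the endothelial gene Pecam1 was at 32.6 and 26.8 CPM. Tnfsf8, the ligand of CD30, was at 59.2 CPM (52.0 to 67.1) against 12.5 CPM (10.8 to 14.5). Fam101b, a regulator of filamin and the actin cytoskeleton, was at 35.8 CPM (30.3 to 42.1) against 6.74 CPM (5.44 to 8.24). Adk, adenosine kinase, was at 48.2 CPM (41.8 to 55.4) against 11.8 CPM (10.0 to 13.7). Elovl6, a fatty acid elongase, was at 40.4 CPM (34.5 to 47.1) against 10.7 CPM (9.03 to 12.5). These 5 genes were named for their high ratios in this comparison, so the separation of their counting intervals follows from that choice. Among 12 apoptosis and survival genes 2 were called higher and 2 lower, with the death receptor gene Fas at 50.4 against 19.8 CPM and the survival gene Bcl2l1 at 28.3 against 55.8 CPM.

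**Figure D1:**
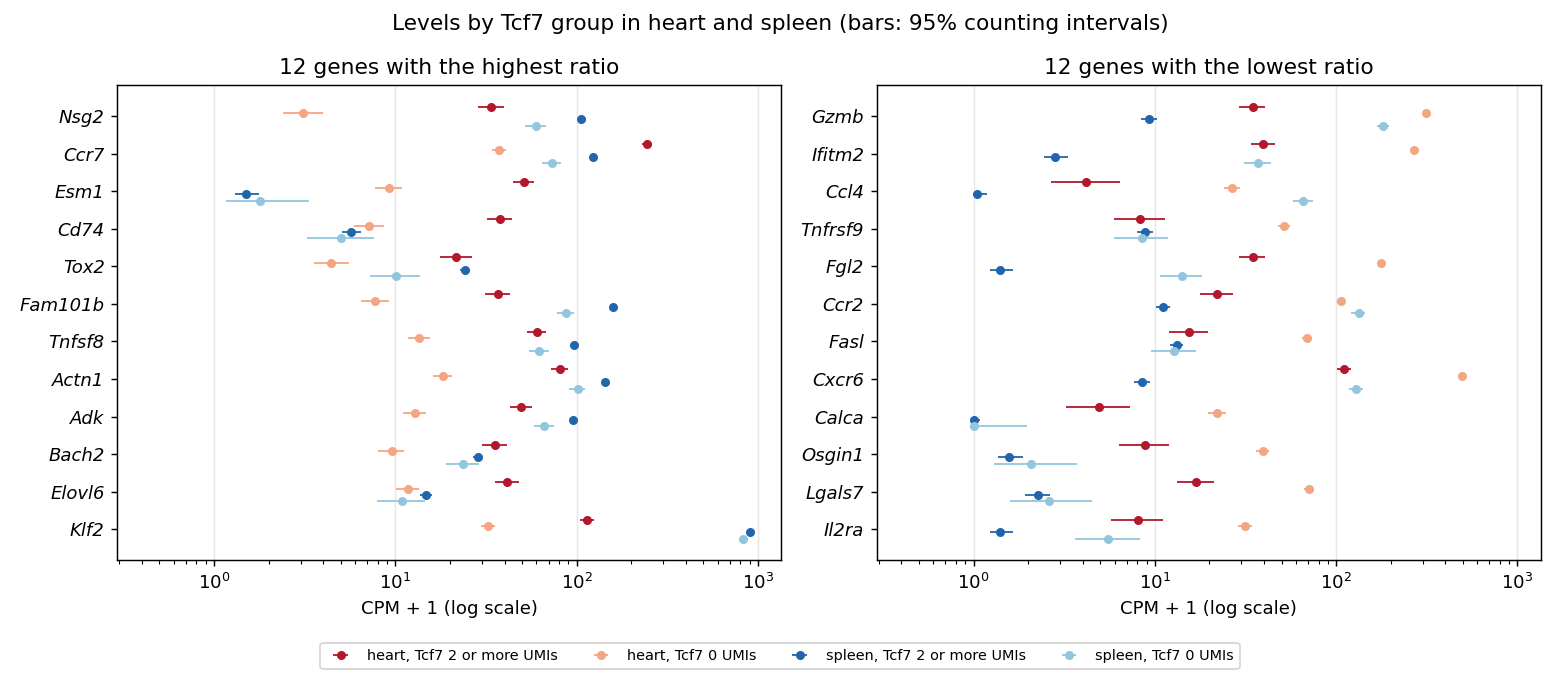
Levels of the 12 genes with the highest (left) and the 12 with the lowest (right) ratio of Tcf7-positive to Tcf7 0 graft cells. The log axis gives CPM + 1, points are the 4 groups of graft and spleen cells, and bars are 95% counting intervals. Gzmb lies at 33.6 CPM in Tcf7-positive and 311 CPM in Tcf7 0 graft cells, and Esm1 lies near 0 in both spleen groups.

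Part of the cytotoxic and Th1 effector genes were lower in the Tcf7-positive cells. Gzmb (chromosome 14, 56258838 to 56262260, minus strand), the cytotoxic protease granzyme B, was at 33.6 CPM (28.2 to 39.7) against 311 CPM (302 to 321), a log2 ratio of -3.17 and the lowest of all genes the naming rule admits. A Gzmb UMI was found in 4.28% of thinned Tcf7-positive cells (2.64 to 6.54%) and in 25.8% of Tcf7 0 cells (23.8 to 27.9%), and in 5.97% and 32.2% without thinning. Fasl, the ligand that triggers death through Fas, was at 14.4 CPM (10.9 to 18.5) against 68.4 CPM (64.2 to 72.9). Nkg7, a cytotoxic granule protein, was at 251 against 747 CPM. Of 14 cytotoxic genes, 10 reached the floor, with 5 called lower and 1 higher, and the median of 11 members was -0.90. The gene called higher was Gzma, another granzyme, at 66.3 against 39.8 CPM. Its UMIs came from 39 of the 469 Tcf7-positive and 88 of the 1808 Tcf7 0 cells. Gzmk, a granzyme of less differentiated effector cells, was at 130 against 96.0 CPM, below the 1.5-fold limit. The granzyme genes thus did not move as one group.

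Of 20 Th1 genes, 15 reached the floor, with 7 called lower and 0 higher, and the median of 18 members was -0.60. Ifng, the defining Th1 cytokine, was at 50.2 CPM (43.6 to 57.5) against 129 CPM (123 to 135), a log2 ratio of -1.34. Ccl4, an inflammatory chemokine, was at 3.17 CPM (1.69 to 5.42) against 25.7 CPM (23.1 to 28.5). Id2, the inhibitor of E proteins that promotes effector differentiation, was at 50.7 against 158 CPM. Tbx21, the Th1 master regulator T-bet, was at 13.6 against 28.1 CPM. Cxcr3, the receptor through which Th1 cells enter inflamed tissue, was at 172 and 171 CPM, and Stat4, which relays IL-12, was at 162 and 151 CPM. The lower members thus included effector products and Tbx21, while the levels of Cxcr3 and Stat4 lay close together.

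Some chemokine receptors and genes of tissue retention were lower. Cxcr6 (chromosome 9, 123806475 to 123811760, plus strand), a receptor of tissue-localised effector cells, was at 109 CPM (99.5 to 120) against 496 CPM (485 to 508). Ccr2, which responds to monocyte-attracting chemokines, was at 21.0 CPM (16.8 to 25.9) against 105 CPM (100.02 to 111). Rgs1, a brake on chemokine receptor signalling that is high in tissue T cells, was at 997 against 1991 CPM, a log2 ratio of -0.997. All 3 levels lay above those of Tcf7-positive spleen cells, where Cxcr6 was at 7.55, Ccr2 at 10.1 and Rgs1 at 15.7 CPM. Of 19 residency and homing genes, 14 reached the floor, with 6 called lower and 1 higher, and the median of 15 members was -0.43. The member called higher was Itga4, an integrin chain, at 227 against 118 CPM.

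Some inhibitory receptors and regulatory genes were also lower. Ctla4, the inhibitory receptor that competes with CD28, was at 535 CPM (513 to 558) against 908 CPM (892 to 924). Havcr2, which encodes TIM-3, was at 0.731 against 13.5 CPM, below the floor. Il10, an anti-inflammatory cytokine, was at 9.74 against 36.3 CPM. Of 16 inhibitory receptor and exhaustion genes, 12 reached the floor, with 5 called lower and 2 higher, and the median of 15 members was -0.58. The 2 called higher were Tox2 and Tox, HMG-box factors of exhausted cells, with Tox at 30.7 against 17.8 CPM. Foxp3, the defining factor of regulatory T cells, gave 0 UMIs in the 469 Tcf7-positive cells, and 61 UMIs from 24 of the 1808 Tcf7 0 cells. Its level was at least 5.98-fold lower when 3 counts are allowed over the group. That bound takes UMIs of the same cell as independent, so the shares of cells are the more cautious measure. At 0 of 469 cells, a share of up to 0.640% is allowed, against 1.33% (0.852 to 1.97%) in the Tcf7 0 cells. Of the regulatory T cell list 5 of 7 genes at the floor were called lower and 0 higher. Il2ra, the high-affinity IL-2 receptor chain and one of these, was at 7.07 CPM (4.73 to 10.1) against 30.5 CPM (27.7 to 33.6).

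Further genes with the lowest ratios lay outside these groups. Ifitm2, an interferon-induced membrane protein, was at 38.5 CPM (32.7 to 45.0) against 268 CPM (259 to 276). Tnfrsf9, the costimulatory receptor 4-1BB, was at 7.31 CPM (4.93 to 10.4) against 50.6 CPM (46.9 to 54.5). Fgl2, a secreted immunoregulatory protein, was at 33.6 CPM (28.2 to 39.7) against 177 CPM (169.7 to 184). Osgin1, an oxidative stress response gene, was at 7.80 CPM (5.33 to 11.006) against 38.5 CPM (35.3 to 41.9). Lgals7, a galectin, was at 15.8 CPM (12.2 to 20.2) against 69.9 CPM (65.6 to 74.5). Calca, which encodes calcitonin and the neuropeptide CGRP, was at 3.90 CPM (2.23 to 6.33) against 21.1 CPM (18.7 to 23.6), and its UMIs came from 118 Tcf7 0 cells.

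The costimulation list had 5 of 13 genes at the floor called lower and 1, Tnfsf8, called higher. Interferon response genes had 6 of 12 called lower and 0 higher, with Isg20 at 83.1 against 205 CPM and Ifit1 at 12.7 against 30.3 CPM. Genes downstream of IL-2 and STAT5 were divided, with 4 of 14 lower and 2 higher. Socs2, a STAT5 target, was at 12.4 against 34.3 CPM, and Socs3, a feedback inhibitor of IL-6 family cytokines, was at 217 against 128 CPM. Among early genes of receptor signalling, 13 of 16 at the floor were not called, with Nr4a1, the immediate-early gene of antigen receptor signalling, at 59.7 against 62.8 CPM. Jun and Fos were called higher, at 49.9 against 24.4 CPM and 34.6 against 20.1 CPM. Dusp2, a phosphatase of MAP kinases, was called lower, at 500 against 814 CPM. With mitochondrial, ribosomal protein and Malat1 UMIs left out of the totals, the Dusp2 log2 ratio was -0.55, short of a call. Of 10 heat shock genes at the floor 0 were called.

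Metabolic lists had medians nearer to that of all genes than the cytotoxic and Th1 lists. Over all genes at the floor 5.12% were called lower and 2.67% higher, and beside those shares 0 calls in a short list is not read as a result. Ldha, the lactate dehydrogenase subunit that the study targets, was at 735 CPM (709 to 762) in the Tcf7-positive cells and 858 CPM (843 to 874) in the Tcf7 0 cells, a log2 ratio of -0.22 below the limit for a call. With mitochondrial, ribosomal protein and Malat1 UMIs left out of the totals, the Ldha ratio was -0.07. Of 16 glycolysis genes at the floor, 2 were called lower and 0 higher. These were Slc16a3, the lactate exporter, at 18.0 against 42.0 CPM, and Aldoa, aldolase A, at 840 against 1302 CPM. Their log2 ratios were -1.04 and -0.48 with those UMIs left out of the totals, so Aldoa then fell short of a call. The median of 18 members was -0.29, and -0.19 with mitochondrial, ribosomal protein and Malat1 UMIs left out of the totals. With the total of all UMIs 16 of the 18 lay below 0 and 2 above, against 3753 of 6200 below 0 over all genes. None of 19 oxidative phosphorylation genes was called, and the list's median of -0.12 turned to 0.03 with those totals. Hypoxia-inducible genes had 2 of 9 called lower, Bnip3 at 17.3 against 27.4 CPM and Ddit4 at 14.9 against 30.7 CPM. With those totals their log2 ratios were -0.50 and -0.87, so Bnip3 then fell short of a call. Proliferation genes that the rule had not used had 0 of 11 called, and Th2 and Th17 genes 0 of 2. The TCF partner and Wnt pathway list had 1 of 7 called higher, Tle3, a corepressor that binds TCF1, at 43.6 against 23.6 CPM. Axin2, a classical Wnt target, was at 18.5 against 7.67 CPM, below the floor, and Ctnnb1, which encodes beta-catenin, was at 75.5 against 75.4 CPM. S1pr1, Tbx21, Cxcr3, Stat4, Itga4, Tox, Gzma, Gzmk, Dapl1, Nr4a1 and Ctnnb1 lie outside the naming rule and were chosen after their values were seen.

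**Figure D2:**
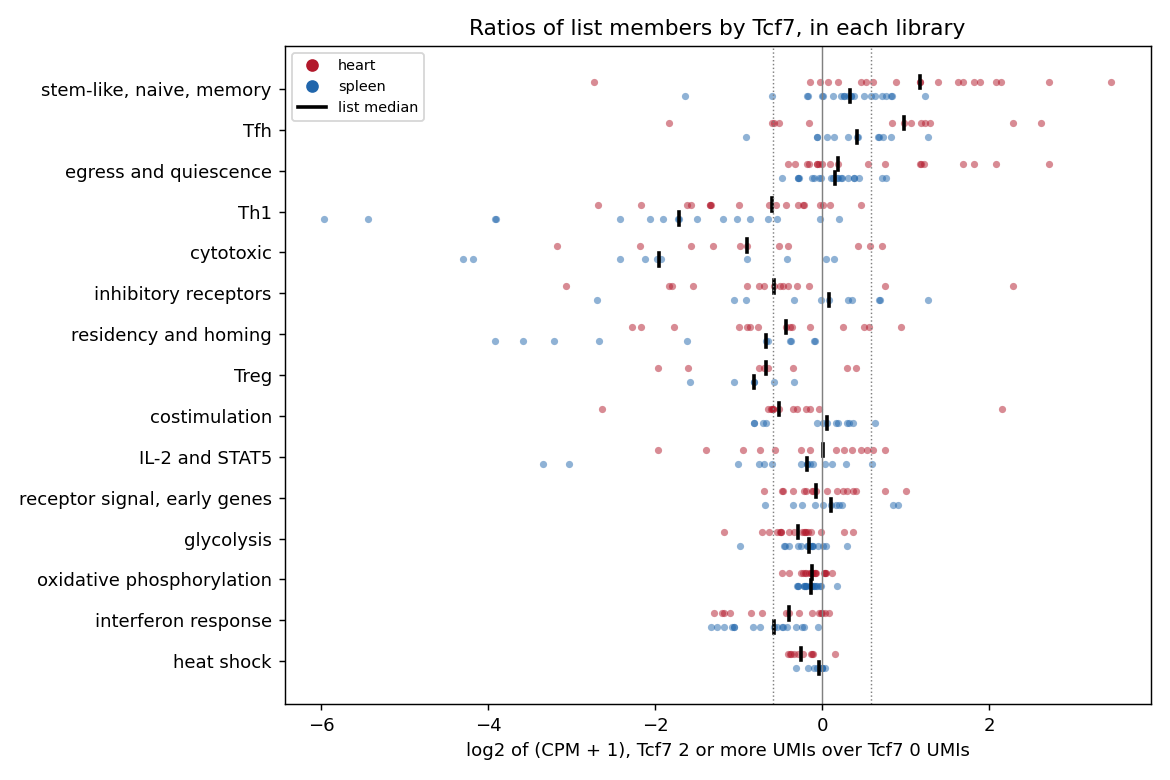
Log2 ratios of Tcf7-positive over Tcf7 0 cells for members of 15 gene lists with at least 10 CPM in either group, in the graft (red) and spleen (blue) library. Black bars are list medians and dotted lines mark 1.5-fold. The stem-like, naive and memory list has a median of 1.17 in the graft and 0.33 in the spleen, and the cytotoxic list -0.90 and -1.96.

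Cells just outside and just inside the threshold of 2 Tcf7 UMIs are described here without a test, since Tcf7 counts chose the cells and a class of 1 UMI can mix cells of either kind. The 437 graft cells with 1 Tcf7 UMI, excluded from both groups, had Slamf6 at 142 CPM (129.8 to 155), against 181 CPM (162 to 203) in the 218 cells with 2 UMIs. Ccr7 rose over the classes from 36.3 CPM at 0 UMIs to 105, 129 and 211 CPM at 1, 2 and 3 UMIs and 423 CPM (389 to 460) in the 127 cells with 4 or more. Of the 546 Ccr7 UMIs in that last class, 61 came from 1 barcode with dendritic cell genes, described below. The last Ccr7 value is thus too high for the other cells of its class, and it was not recomputed. Nsg2 followed the same order, from 2.08 to 6.71, 15.6, 34.2 and 55.0 CPM. Gzmb ran in reverse, from 311 CPM to 135, 54.9, 24.0 and 13.2 CPM (7.68 to 21.1). Lef1 and Klf2 did not rise further past 2 UMIs, with Lef1 at 76.8, 69.2 and 65.9 CPM and Klf2 at 118, 112 and 108 CPM at 2, 3 and 4 or more UMIs. Gzmk was at 96.0, 117, 137, 143 and 108 CPM over the 5 classes. The classes also differed in depth, with median UMI counts of 7309.5, 7225, 7326.5, 7975 and 9390. With the Tcf7 0 cells reweighted to the depths of the Tcf7-positive cells, 135 genes other than Tcf7 were called higher and 264 lower, of which 114 and 222 were the same as without reweighting. Thinning each cell to 3000 UMIs changed the calls more, with 158 higher and 326 lower, of which 90 and 189 were the same. With 1 or more Tcf7 UMIs counted on thinned cells, 110 were higher and 207 lower, of which 60 and 122 were the same.

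**Figure D3:**
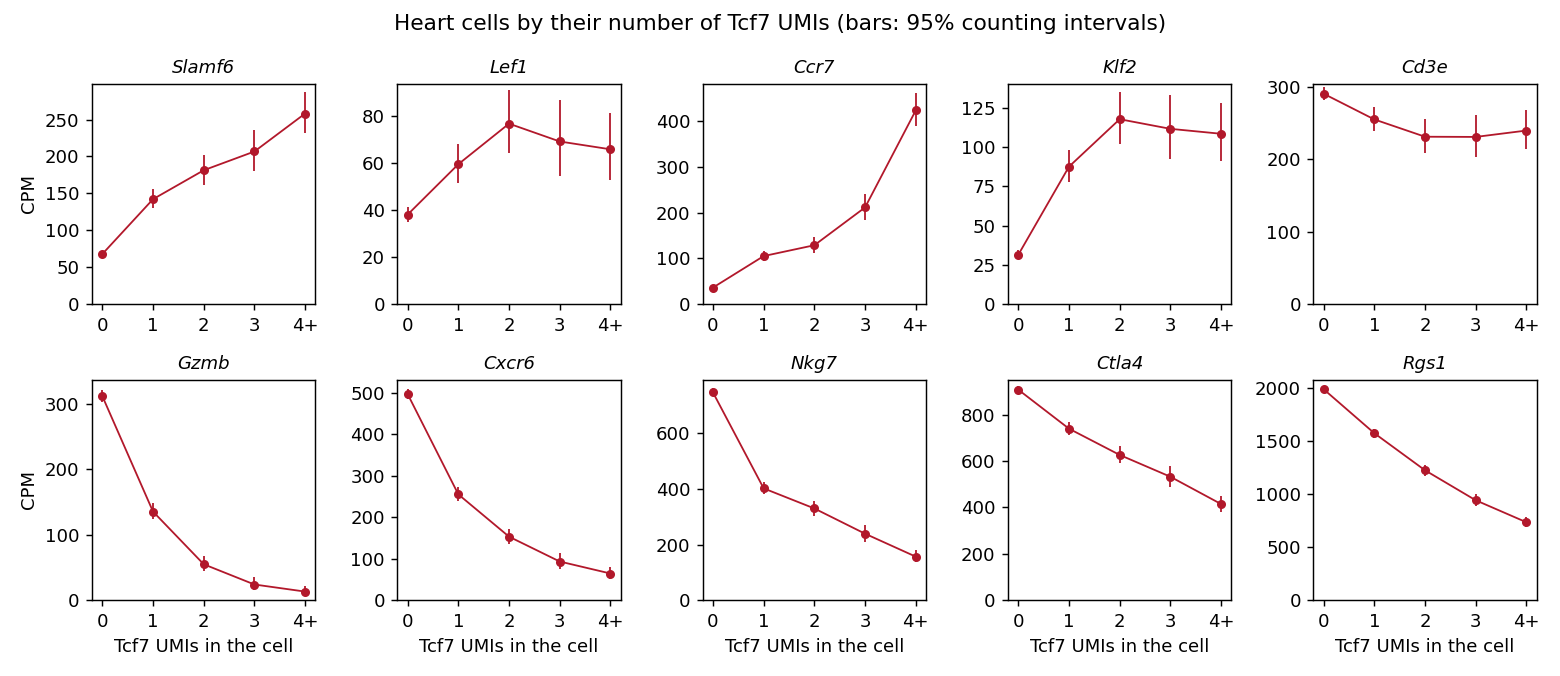
CPM of 10 genes in graft cells grouped by their number of Tcf7 UMIs, with 95% counting intervals. Ccr7 climbs from 36.3 to 423 CPM and Gzmb drops from 311 to 13.2 CPM across the classes, while Cd3e, a gene the filter used, stays between 231 and 290 CPM.

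The spleen library, which the choice of graft cells did not use, gave most of these genes the same direction. The median of the stem-like, naive and memory list was 0.33 there, against 1.17 in the graft. By the same rule 4738 of 6020 filtered spleen cells (78.7%, 77.6 to 79.7%) were Tcf7-positive and 500 had no Tcf7 UMI. Among 4820 genes at the floor in spleen, 61 were higher (1.27%) and 147 lower (3.05%) in the Tcf7-positive cells. Of the 120 genes higher in the graft, 95 reached the floor in spleen, 82 of these had a ratio above 0 there (86.3%, against 45.2% of all genes at the floor in both libraries) and 23 were called higher. Those 23 are 19.2% of the 120 graft genes and 38.3% of the 60 spleen genes other than Tcf7. Of the 232 genes lower in the graft, 139 reached the floor in spleen, 126 had a ratio below 0 there (90.6%, against 54.8% of all) and 69 were called lower. Those 69 are 29.7% of the graft genes and 46.9% of the spleen genes. Across the 4090 genes at the floor in both libraries the ratios correlated with Pearson's r of 0.59, a description across genes, which share libraries and depth and are not independent.

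Single genes differed in size between the libraries. Slamf6 was at 476 CPM in Tcf7-positive and 318 CPM in Tcf7 0 spleen cells, a log2 ratio of 0.58 against 1.63 in the graft. Ccr7 had a log2 ratio of 0.76 in spleen and 2.71 in the graft. Klf2 was at 904 and 827 CPM in spleen, a log2 ratio of 0.13, where both groups lay far above the graft cells. Cytotoxic and Th1 genes had larger ratios of summed UMIs in spleen, with list medians of -1.96 and -1.71. After thinning, the per-cell sums of both lists had medians of 4 in Tcf7-positive and 8 in Tcf7 0 spleen cells. The graft medians were 17 and 28. Single Tcf7 0 spleen cells held 347, 520 and 564 of these UMIs, so the list medians need not hold for most spleen cells. Gzmb in spleen was at 8.28 against 181 CPM, and without thinning it was found in 104 of the 500 Tcf7 0 spleen cells. Pdcd1 was at 37.4 against 29.9 CPM in spleen, a log2 ratio of 0.31, and -1.83 in the graft, and Tnfrsf9 and Fasl had spleen ratios of 0.05 each. These differences between the libraries' ratios were not tested.

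Tcf7-positive graft cells were not a copy of Tcf7-positive spleen cells. Of 5007 genes at the floor in either, 760 were higher in the graft cells (15.2%) and 1121 lower (22.4%). With mitochondrial, ribosomal protein and Malat1 UMIs left out of the totals, 713 of the same genes were higher and 1237 lower. Rgs1 was at 997 CPM in Tcf7-positive graft cells and 15.7 CPM in Tcf7-positive spleen cells, a log2 ratio of 5.90. Ctla4 was at 535 and 23.9 CPM, and Cxcr6 at 109 and 7.55 CPM. Id3 was at 11.7 CPM in the graft cells and 458 CPM in the spleen cells, Klf2 at 113 and 904 CPM, and Slamf6 at 212 and 476 CPM. Ccr7 had the other order, at 243 CPM in the graft and 123 CPM in the spleen cells. Esm1 was at 49.9 and 0.502 CPM. Of 21 stem-like, naive and memory genes at the floor, 13 were lower in the graft cells than in the spleen cells and 3 higher. Of 12 Th1 genes 10 were higher and 1 lower, and of 9 cytotoxic genes 8 were higher and 0 lower. Tcf7 itself was at 353 and 552 CPM, with medians of 3 and 4 UMIs per cell.

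Cell by cell, most Tcf7-positive graft cells carried transcripts that were rare in spleen cells. Rgs1, Ctla4 and Crem, a cAMP-responsive repressor gene, were summed per cell. They were chosen as graft genes with earlier results of these data known, so their rarity in spleen cells is a description and not a result. Of 469 Tcf7-positive graft cells 5 held no UMI of these 3 genes (1.07%), against 2 of 1808 Tcf7 0 graft cells (0.111%) and 3409 of 4738 Tcf7-positive spleen cells (72.0%). With each cell thinned to 3000 UMIs, 29 of 467 Tcf7-positive graft cells (6.21%, 4.198 to 8.80%), 7 of 1783 Tcf7 0 graft cells (0.393%) and 87.5% of Tcf7-positive spleen cells held none, and the median sum was 5 in Tcf7-positive graft cells, 10 in Tcf7 0 graft cells and 0 in both spleen groups. Thinning left out 2 Tcf7-positive and 25 Tcf7 0 graft cells and 10 and 11 spleen cells. The summed Th1 and cytotoxic UMIs had medians of 17 and 28 in the 2 graft groups, and 4 and 8 in the spleen groups. The 24 stem-like, naive and memory genes without Tcf7 had medians of 9 and 7 in the graft and 15 and 13 in the spleen. The graft cells with Tcf7 thus held intermediate sums on all 3 scales. Barcodes of 10 to 100 UMIs in the graft library, which can hold free RNA, had Rgs1 at 1945 CPM, Ctla4 at 1396 CPM, Gzmb at 216 CPM and Tcf7 at 138 CPM. Rgs1, Ctla4 and Crem were found in 86.1%, 91.5% and 87.0% of unthinned Tcf7-positive graft cells. In the 16 myeloid barcodes they were found in 7, 1 and 11, so 2 of the 3 summed genes were not rare there. Cd4, Ccr7, Gzmb, Cxcr6, Cxcr5 and Foxp3 were found in 0 of these 16. How much free RNA added to the low sums was not tested.

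**Figure D4:**
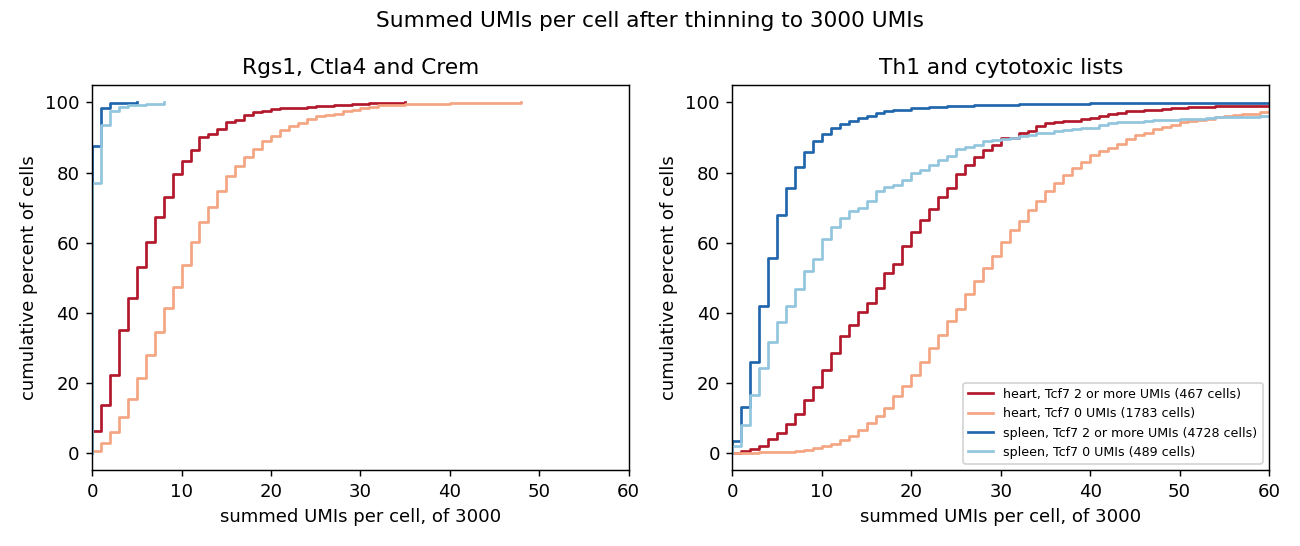
Cumulative percent of cells by summed UMIs of Rgs1, Ctla4 and Crem (left) and of the Th1 and cytotoxic lists (right) after thinning to 3000 UMIs per cell, for the 4 groups. On the left the Tcf7-positive graft cells (median 5) lie between the Tcf7 0 graft cells (median 10) and the spleen groups (medians 0).

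Within the Tcf7-positive graft cells some markers were spread unevenly. After thinning, a Ccr7 UMI was found in 37.7% (30.7 to 45.2%) of the 183 cells with a Slamf6 UMI and in 26.1% (21.0 to 31.6%) of the 284 without. Rgs1 was found in 63.4% (56.0 to 70.4%) of the Slamf6-detected cells and 82.4% (77.5 to 86.6%) of the others. It was found in 60.1% (51.6 to 68.2%) of the 143 Ccr7-detected cells and 81.5% (76.8 to 85.6%) of the others. Nkg7 was found in 19.6% (13.4 to 27.04%) of Ccr7-detected and 40.4% (35.0 to 46.0%) of the other Tcf7-positive cells, and Gzmk in 13.3% (8.19 to 19.97%) and 26.9% (22.1 to 32.0%). Klf2 was found in 21.7% and 21.9%. These shares compare cells of 1 library and describe that library only.

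The segments of the transgenic receptor gave most V segment UMIs in both graft groups. Of 154 Trbv UMIs, 127 were of Trbv19, the V beta 6 segment of the transgene, a share of 82.5% (75.5 to 88.1%), against 90.1% (87.3 to 92.4%) in Tcf7 0 graft cells. Segments of the Trav14 family, the V alpha 2 side, took 82.0% (77.5 to 86.0%) of Trav UMIs against 79.2% (76.9 to 81.3%). The Trbv19 share was lower in the Tcf7-positive cells, with intervals that overlap only from 87.3 to 88.1%, and the Trav14 intervals overlap more widely. Overlap does not show that shares are equal, and the differences were not tested. In Tcf7-positive spleen cells the shares were 78.6% and 57.0% (55.3 to 58.6%).

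The lists for other cell types were also summed, and most UMIs of the antigen presentation genes Cd74 and H2-Aa came from 1 barcode. Of the 9 B cell markers only Ighm exceeded 10 CPM, at 66.0 CPM in Tcf7-positive and 33.8 CPM in Tcf7 0 graft cells, and the summed list was at 68.7 and 35.0 CPM, with the B cell gene Cd79a at 0.974 CPM in the Tcf7-positive cells. The part of other cells in the Ighm difference was not tested. NK and innate lymphoid markers summed to 4.87 and 5.95 CPM, CD8 markers to 6.58 and 12.5 CPM, neutrophil markers to 0.731 and 0.430 CPM, and haemoglobin and platelet markers were at 0 in both graft groups. Trdc, the gamma delta receptor constant segment, was at 369 and 440 CPM. The myeloid list reached 417 and 355 CPM, of which Ctss and Cst3 gave nearly all. Dendritic markers summed to 61.4 and 10.46 CPM, from Cd74 at 36.8 and 6.16 CPM and H2-Aa at 18.8 and 0.788 CPM, genes of antigen presentation. Of these, 1 barcode of 21522 UMIs held 110 of the 151 Cd74 UMIs and 64 of the H2-Aa UMIs. The same barcode held 354 UMIs of Cst3, 30 of Fscn1, 18 of Cd83 and 61 of Ccr7, and 4 of Tcf7. Without it Cd74 was at 10.0 CPM, Cst3 at 86.9 CPM and Fscn1, a gene of migrating dendritic cells, at 0, while Ccr7 remained at 229 CPM. Without the 3 Tcf7-positive and 2 Tcf7 0 cells with at least 5 UMIs of H2-Aa, H2-Ab1 and Cd74, Cd74 had a log2 ratio of -0.18 and Cst3 of -0.32, against 2.40 and 0.66 with them. Cd74 and Cst3 remain in the counts above, and Cd74 in the plot of the highest ratios. Of the 120 genes called higher, 115 were called with those cells left out.

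Promoter windows of the genes that moved with Tcf7 were read for the core letters that TCF1 and LEF1 bind, because the members were chosen by Tcf7. The windows are 300 bases from RefSeq on GRCm38.p6, each from 250 bases before to 50 after an annotated start. The letters searched were CTTTGAT, then CTTTGAA, then CTTTGTT, then CTTTGTA, each on both strands. Windows were matched for 98 of the 120 genes higher in the graft (81.7%), and 23 of their 130 windows (17.7%, 11.6 to 25.4%) held a match. Of the 4677 windows of genes at the expression floor 11.2% (10.3 to 12.2%) held one, and 16.9% of all 32851 windows did. These intervals take windows as independent, but windows of the same gene can overlap and share a match. The same Tox2 match, for example, was counted in 2 of the 5 Tox2 windows. The intervals can therefore be too narrow. Shares per gene were not computed, and the difference between the shares was not tested. Genes called lower are not given, because fewer than 80% of them were matched. Of 16 genes of the sections above whose windows were read, 4 held a match, and the stretches around it are shown to let the letters be seen in place. The match is in capitals, on the plus strand, 5′ to 3′. The Nsg2 stretch lies at chr11:32000169-32000208, the Tox2 stretch at chr2:163225293-163225339, the Elovl6 stretch at chr3:129532136-129532170 and the Lef1 stretch at chr3:131156127-131156173, before a start inside the annotated gene.
Nsg2: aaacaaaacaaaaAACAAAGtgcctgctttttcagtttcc
Tox2: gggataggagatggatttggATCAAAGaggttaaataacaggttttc
Elovl6: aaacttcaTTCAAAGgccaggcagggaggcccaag
Lef1: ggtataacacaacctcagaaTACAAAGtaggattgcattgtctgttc
The windows of Slamf6, Bach2, Klf2, Actn1, Esm1 and Tcf7 held none of these letters. A match is a description of letters, not of binding, and these data hold no binding measurement.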

How the data were processed

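Cells, members and gene lists were chosen with earlier results of these data known. Values in the deposited files are raw UMI counts, which the authors had not normalized. Per the file headers, Cell Ranger 3.0.2 made both wild-type matrices. The submitters' processing notes list Seurat 4.0.0, Cell Ranger 7.0.0 and the mm10 build. The labels' protocols describe a nuclei suspension from sorted cells. How intronic reads were handled is not given in the sources used here. In the Ldha-/- matrix the rows carry no gene names, and it was not used here.

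Filters were applied as stated in the report. No doublet caller was run, so doublets can remain. UMIs were summed per group, given as CPM and compared with a pseudocount of 1 CPM, with numpy 2.4.6, pandas 2.3.3 and scipy 1.17.1. A list's median was taken over members with at least 10 CPM in either group. Cells were thinned to 3000 UMIs for shares. The genes named were the 12 highest and the 12 lowest ratios, apart from genes the rule used, ribosomal protein and mitochondrial genes, haemoglobins, unnamed or sex-linked genes, and segments of receptors and immunoglobulins. Slamf6, Lef1, Id3, Ldha, Ifng, Gzmb, Cxcr5, Bcl6, Foxp3, Ccr7, Il7r, Ctla4 and Cxcr6 were named in any case, and so were at most 4 genes per list. Some genes this takes are not reported here. Gene positions are from GENCODE M21. Counts for Tcf7-positive against Tcf7 0 graft cells were simulated, with changed genes taken only from those at 50 CPM or more. All changes of 2-fold or more were called (100%), 0.048% of 4172 unchanged genes were called and 95.6% of ratio intervals covered the truth. The simulated counts followed the same counting model as the intervals, so this checks the code and not whether that model holds. Variation between cells and between libraries was not simulated.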

Additional observations from a re-analysis of the deposited data

Results flagged for a closer look

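Bcl2, a survival gene, had ratios of opposite sign in the 2 libraries. It was at 21.0 CPM in Tcf7-positive and 13.4 CPM in Tcf7 0 graft cells, a log2 ratio of 0.61, and at 46.4 and 71.0 CPM in the spleen groups, a log2 ratio of -0.60. Gzma was at 66.3 and 39.8 CPM in the graft groups, a log2 ratio of 0.72. In the spleen groups it was at 0.928 and 33.9 CPM, a log2 ratio of -4.18. These levels came from few cells. Without thinning, Gzma was found in 28 of 4738 Tcf7-positive and 10 of 500 Tcf7 0 spleen cells. After thinning, the graft shares were 4.93% (3.15 to 7.30%) in Tcf7-positive and 3.03% (2.28 to 3.93%) in Tcf7 0 cells, with overlapping intervals. Each library gives 1 value, and the difference between the libraries was not tested.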

How the results depend on the processing

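No paired analysis was possible because each group is 1 library. Of 14 alternatives, and 2 more chosen after seeing the data, 11 and 2 change the ratio of a single gene. Over these and the reported value, Slamf6 had log2 ratios of 1.23 to 1.79, Ccr7 1.93 to 3.14, Lef1 0.68 to 1.05 and Gzmb -4.03 to -1.95. With Tcf7 at 3 UMIs or more, 387 genes were lower and the medians were 1.37 (Tfh), -0.83 (Th1), -1.12 (cytotoxic) and -0.72 (residency). With 1 or more, 77 were higher and 117 lower, with medians of 0.87 (stem-like), -0.39 (Th1) and -0.67 (cytotoxic), and on thinned cells the medians were 0.74 (stem-like), 0.59 (Tfh), -0.35 (Th1) and -0.63 (cytotoxic). Totals without mitochondrial, ribosomal protein and Malat1 UMIs gave 339 higher genes, a residency median of -0.59, an oxidative phosphorylation median of 0.027 and 1852 genes lower in graft than in spleen. A floor of 50 CPM gave 49 higher and 122 lower and medians of 0.89 (stem-like), -0.52 (Tfh) and -0.71 (cytotoxic). No floor gave 753 and 858 and -0.81 (Th1), a 2-fold limit 43 and 73, a pseudocount of 5 CPM 0.92 (stem-like) and cells with 0 cycling UMIs 1.41 (stem-like). Without cells holding at least 5 antigen-presentation UMIs, Cd74 was at -0.18 and Cst3 at -0.32. Over 99 named genes, 200 values moved by more than their counting error, 2 reversed and 1085 did neither. Shares of cells with a UMI, set against thinning to 1000 UMIs or none, left their interval for 189 values and stayed in it for 35. Counting depth limits genes below 0.731 CPM. Where a value moved, the cause was not tested.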
